A study of Mus musculus with 4 samples.

Results

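XBP1s occupancy at the genes of oxidative phosphorylation was read from 1 combined list of 4890 peaks, obtained in mouse natural killer (NK) cells by ChIP-seq, which sequences the DNA that an antibody to a bound protein pulls down. XBP1s is the protein made from spliced Xbp1 mRNA, a transcription factor of the unfolded protein response. A peak belonged to the set when the authors' nearest gene was protein-coding, its transcription start site (TSS) lay at most 5000 bp from the peak centre, and its name matched subunits of respiratory complexes I to III, of cytochrome c oxidase (complex IV) or of ATP synthase (complex V), or was Cyc1 or Cycs. This gave 21 peaks at 21 genes, out of 3805 peaks near protein-coding start sites. They are 8 genes of complex I, 1 of complex II, 3 of complex III, none of complex IV, 6 of complex V, the gene of cytochrome c, and the complex I assembly factor genes Ndufaf4 and Ndufaf8, which the name Nduf takes in.

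The libraries were 2 XBP1s immunoprecipitations and 2 inputs without antibody, all from splenic NK cells of C57BL/6 mice treated with IL-15, a cytokine that sustains NK cells, at 50 ng/ml for 1 h. The series text gives the animals as Il15TgXbp1f/f; no Cre and no untreated cells are named, so the XBP1s libraries and the inputs carry the same genotype and treatment. The list has no value for any single library and its score is 0 for every peak. Replicate error is therefore not known for any value below, the depth behind each interval is unknown, and the libraries could not be compared. Presence, position and width of an interval are the only readouts, and width is not a measure of signal. Among listed markers, 4 of 9 NK genes (Prf1, Gzma, Gzmb and Il2rb) had a peak near the TSS, while Ncr1, Klrb1c, Klrk1, Eomes and Tbx21 had none. So did 1 of 4 T cell genes (Cd3d) and none of 3 B cell, 3 myeloid or 2 erythroid genes. The share over all protein-coding genes was 15.9%, so lists this short say little about cell type. Occupancy does not measure expression.

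Oxidative phosphorylation couples electron transfer to ATP synthesis in the inner mitochondrial membrane. Complex I (NADH dehydrogenase) and complex II (succinate dehydrogenase) feed electrons to ubiquinone, complex III passes them to cytochrome c, complex IV gives them to oxygen, and complex V uses the proton gradient to make ATP. Most subunits are coded in the nucleus, and the factors NRF1, GABP (an ETS factor), YY1 and CREB are known from work in mammalian cells to act at their promoters. XBP1s is known chiefly for genes of the endoplasmic reticulum, where it reads the unfolded protein response (UPR) element and elements that hold the letters ACGTG. No peak lay on the mitochondrial genome (0 of 4890).

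Promoter sequence was read for the members from RefSeq (GRCm38.p6, the assembly of mm10), 250 bases before to 50 after each start site, and 19 of 21 members had an entry. The 8 stretches below are shown because they hold every upstream match of the CRE (TGACGTCA, read by CREB and ATF factors), of NRF1 (GCGCATGC) and of ACGTG that lay inside the authors' interval. Each runs 5′ to 3′ on the gene's strand, ends before the start site and has the matches on either strand in capitals; a match is a run of letters and not a measured site.
Cycs: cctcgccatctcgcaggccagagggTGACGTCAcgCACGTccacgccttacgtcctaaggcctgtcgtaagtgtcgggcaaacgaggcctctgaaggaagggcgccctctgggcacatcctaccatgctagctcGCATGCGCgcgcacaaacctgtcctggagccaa
Uqcrfs1: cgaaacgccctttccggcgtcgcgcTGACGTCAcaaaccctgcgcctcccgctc
Ndufa10: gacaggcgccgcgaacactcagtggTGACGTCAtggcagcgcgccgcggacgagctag
Sdhb: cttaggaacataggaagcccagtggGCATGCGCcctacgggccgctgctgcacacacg
Atp5g2: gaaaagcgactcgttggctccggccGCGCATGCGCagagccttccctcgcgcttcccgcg
Ndufaf4: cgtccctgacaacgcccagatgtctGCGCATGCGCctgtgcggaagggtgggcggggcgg
Atp5g1: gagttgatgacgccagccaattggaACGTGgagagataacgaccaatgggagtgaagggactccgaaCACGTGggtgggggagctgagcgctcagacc
Ndufa7: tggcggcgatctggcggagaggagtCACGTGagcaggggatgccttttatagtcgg

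The Cycs stretch (chr6:50566597-50566763, minus strand) carried a CRE that began 169 bases before the start site, ACGTG on the reverse strand 159 bases before it, and NRF1 letters 60 bases before it. Uqcrfs1 (chr13:30545317-30545370, minus strand) and Ndufa10 (chr1:92473793-92473850, minus strand) each held a CRE, 29 and 67 bases before the start. NRF1 letters stood in Sdhb (chr4:140961192-140961249, plus strand) 54 bases before the start, and in Atp5g2 (chr15:102671055-102671114, minus strand) and Ndufaf4 (chr4:24897945-24898004, plus strand) as the palindrome on both strands. Atp5g1 (chr11:96075645-96075742, minus strand) had ACGTG at 86 and 43 bases before the start, the nearer one within the palindrome CACGTG. Ndufa7 (chr17:33824475-33824530, plus strand) also had CACGTG, with ACGTG 71 bases before the upstream of its 2 start sites in the table and 144 bases before the downstream one, which the authors' distance of 3 bp refers to. All these matches lay inside the intervals, although the printed flanks of Sdhb and Ndufa10 run past the interval's edge.

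The first question was which respiratory complexes carry peaks. Complex V (6 of 17) and complex III (3 of 9) had larger shares of their subunit genes with a peak than complexes I and II, and complex IV had none, but the exact intervals of all 5 shares overlap. Of 85 listed nuclear subunit genes of complexes I to V and cytochrome c, 19 had an assigned peak (22.4%, exact Clopper-Pearson 95% interval 14 to 32.7), beside 15.9% of all 21896 protein-coding genes (3482 genes). The interval of this share holds the background value. That of the share by start site, given further on (27.5%, against 17.2%), begins at 17.5% and so lies only just above it. Intervals cover counting error only, and genes are not independent replicates.

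**Figure D1:**
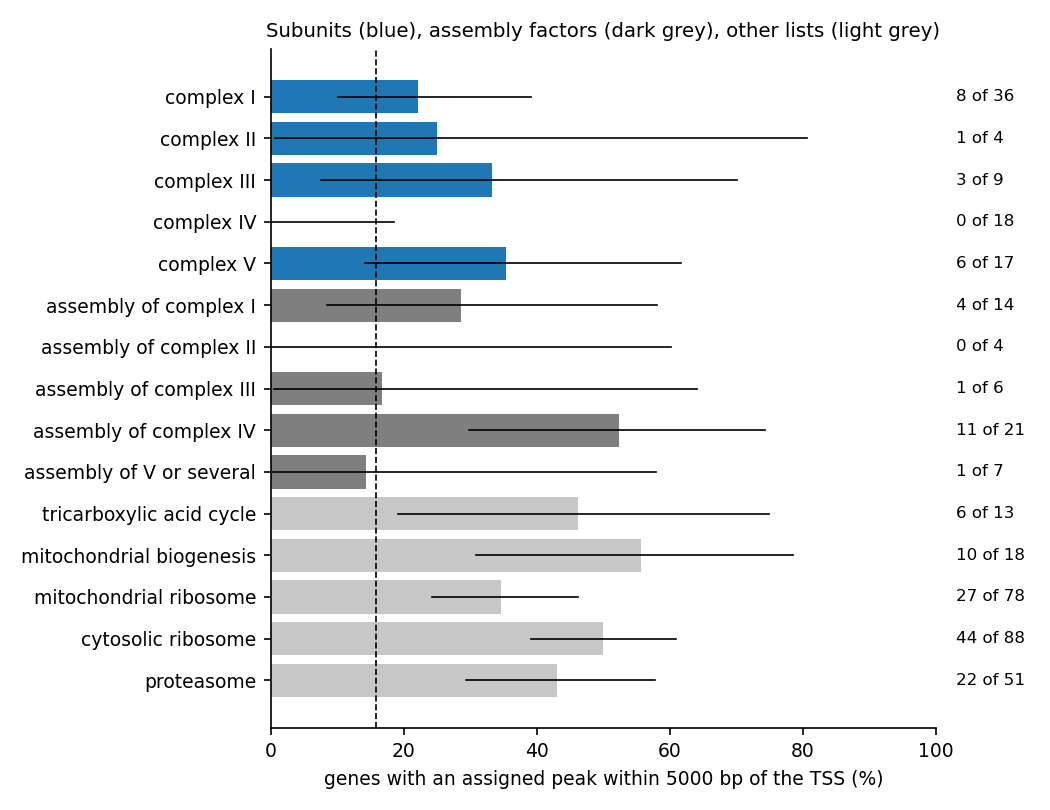
Percent of the genes of each list with an assigned peak within 5000 bp of the TSS (x axis), for subunits by complex, assembly factors by the complex they build, and other lists (y axis). Thin lines are exact 95% intervals, the dashed line is the share of all protein-coding genes (15.9%), and counts stand at the right; complex IV subunits show 0 of 18 and its assembly factors 11 of 21.

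In complex I, 8 of 36 subunit genes had a peak (22.2%). With intervals of at least 200 bp only, the share was 13.9%, beside 14.8% of all protein-coding genes. Ndufv1, the core subunit that binds NADH, was the only 1 of 7 nuclear core genes with a peak, and its interval of 117 bp was the narrowest of all 21 (chromosome 19, 4012653 to 4012769, its centre 44 bp past the TSS). Among 29 accessory genes 7 had a peak. Ndufa13, which codes for the subunit also known as GRIM-19, had the widest of them at 672 bp (chromosome 8, 69902559 to 69903230, promoter). Ndufb5 followed at 517 bp, Ndufa7 at 348 bp, Ndufa3 at 338 bp in intron 1 of 3, Ndufa10 at 214 bp, Ndufb7 at 198 bp and Ndufb11 at 163 bp. The median width of the 8 complex I peaks was 276 bp, and 6 of 8 were no wider than the median of all peaks near protein-coding start sites (395 bp). The 2 assembly factor members had intervals of 550 bp at Ndufaf8 and 252 bp at Ndufaf4.

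In complex II, 1 of 4 genes had a peak. It was Sdhb, the iron-sulphur subunit, with 387 bp in the 5′ untranslated region of exon 1 of 8 (chromosome 4, 140961203 to 140961589), with the centre 125 bp past the TSS. In complex III, 3 of 9 genes had a peak (33.3%), and these intervals were of like width. Uqcrb, the ubiquinone-binding subunit, had 354 bp (chromosome 13, 66905072 to 66905425), Uqcrq 317 bp (chromosome 11, 53430640 to 53430956) and Uqcrfs1, the Rieske iron-sulphur protein, 218 bp (chromosome 13, 30545217 to 30545434). None of the 3 exceeded the median of all peaks. The structural core genes Uqcrc1 and Uqcrc2 and the cytochrome gene Cyc1 had no assigned peak.

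Complex V had 6 of 17 genes with a peak (35.3%, exact 95% interval 14.2 to 61.7), and 5 of its 6 intervals were wider than the median of all peaks. Their median was 454.5 bp, above that of complex I, but the ranges overlap (262 to 737 bp in complex V and 117 to 672 bp in complex I). In F1, the part of the enzyme that makes ATP, 3 of 5 genes had a peak. These were Atp5b, the catalytic beta subunit (650 bp, chromosome 10, 128083030 to 128083679, its centre 47 bp past the TSS), Atp5e, the epsilon subunit (427 bp), and Atp5d, the delta subunit (262 bp). Of the 3 genes for the membrane ring subunit c, Atp5g1 had 737 bp (chromosome 11, 96075471 to 96076207), the widest interval of the whole set, Atp5g2 had 462 bp (chromosome 15, 102670663 to 102671124) and Atp5g3 had none. Among the 9 other stalk and membrane genes, Atp5md, the small subunit DAPIT, had 447 bp (chromosome 19, 47090472 to 47090918). Cycs, which codes for the electron carrier cytochrome c that also triggers caspase activation once released from mitochondria, had 731 bp (chromosome 6, 50566201 to 50566931), wider than 83.9% of all peaks near protein-coding start sites.

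Complex IV stood at 0 of 18 subunit genes (exact 95% interval up to 18.5%, which holds the 15.9% of all genes). The list holds isoforms restricted to particular tissues, such as Cox6a2, Cox7a1 and Cox8b; without 7 such isoforms the count was 0 of 11. In contrast to the subunits, 11 of 21 genes for factors that build complex IV had a peak (52.4%, exact 95% interval 29.8 to 74.3). The widest were at Cox20 (1028 bp), Cox15, an enzyme of haem A synthesis (828 bp), Cox18, which inserts a subunit into the membrane (671 bp), and Cox14 (529 bp). Sco1 and Cox17, which deliver copper, Taco1, Cmc1, Cox16, Coa4 and Coa7 also had peaks, of 235 to 472 bp. By assigned peaks, the intervals of the subunit and the assembly shares do not overlap (0 to 18.5% for the subunits). Without the 7 isoforms the subunit interval reaches 28.5%, just short of the 29.8%. Start sites inside or within 250 bp of a peak of any name gave 1 of 13 subunit and 11 of 18 assembly genes. Those intervals overlap (0.195 to 36% and 35.7 to 82.7%), and the difference was not tested.

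For the other complexes, assembly factors had peaks at 4 of 14 genes for complex I (28.6%), 0 of 4 for complex II, 1 of 6 for complex III and 1 of 7 for complex V or several complexes. Besides Ndufaf4 and Ndufaf8, the genes were Timmdc1 and Nubpl for complex I, Lyrm7 for complex III and Dmac2l, known also as Atp5s. Over all assembly factors the count was 17 of 52 (32.7%, exact 95% interval 20.3 to 47.1). By start sites inside or within 250 bp of a peak of any name it was 23 of 46 (50%, exact 95% interval 34.9 to 65.1), with 6 of 12 for complex I, 1 of 4 for complex II, 3 of 6 for complex III, 11 of 18 for complex IV and 2 of 6 for the rest. The 8 genes that this added had peaks named for neighbours: Ndufaf7 and Foxred1 (complex I), Sdhaf2 (complex II), Bcs1l and Ttc19 (complex III), Surf1 and Coa5 (complex IV) and Atpaf2 (complex V). The lists taken as most alike had 27 of 78 mitochondrial ribosomal protein genes (34.6%) and 44 of 88 cytosolic ribosomal protein genes (50%) with a peak. Among proteasome genes, taken as every name that begins with Psm, 22 of 51 had one (43.1%). The subunit share of 22.4% was below each of these, and the exact interval of the cytosolic list (39.1 to 60.9) lies wholly above that of the subunits, while those of the other lists overlap it. These shares are set side by side with no test.

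The peaks sat on the start sites. All 21 centres lay within 1000 bp of the TSS, against 91.5% of the 3805 peaks, and 12 of 21 lay within 100 bp (57.1%), against 36.8%. The median distance was 3 bp downstream (range -829 to 190 bp), beside 49 bp over the 3805 peaks. The interval spanned the authors' TSS for 16 of 21 members (76.2%) and for 62.6% of the 3805 peaks, and HOMER put 18 of 21 (85.7%) in promoters, against 64.2%. Positions in lists of like genes varied. Centres lay within 100 bp for 59.3% of the 27 peaks at mitochondrial ribosomal protein genes. The share was 58.8% of the 17 at assembly factors, which include 2 members. It was 42.6% of the 47 at cytosolic ribosomal protein genes and 36.4% of the 22 at proteasome genes. In the same order, 74.1%, 88.2%, 66% and 72.7% spanned the TSS. The 5 members that did not span it were Ndufa3, Ndufa13, Ndufb11, Atp5d and Ndufaf4. Distance entered the choice of members only through the limit of 5000 bp. The member farthest out was Atp5d, centred 829 bp upstream, and the nearest peaks beyond the limit were at Atp5h (394 bp wide, 6372 bp downstream), Cox4i2 (35541 bp) and Ndufa9 (37321 bp). The Atp5h peak lay beside tRNA genes and the Cox4i2 peak inside Bcl2l1, which codes for an inhibitor of apoptosis.

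**Figure D2:**
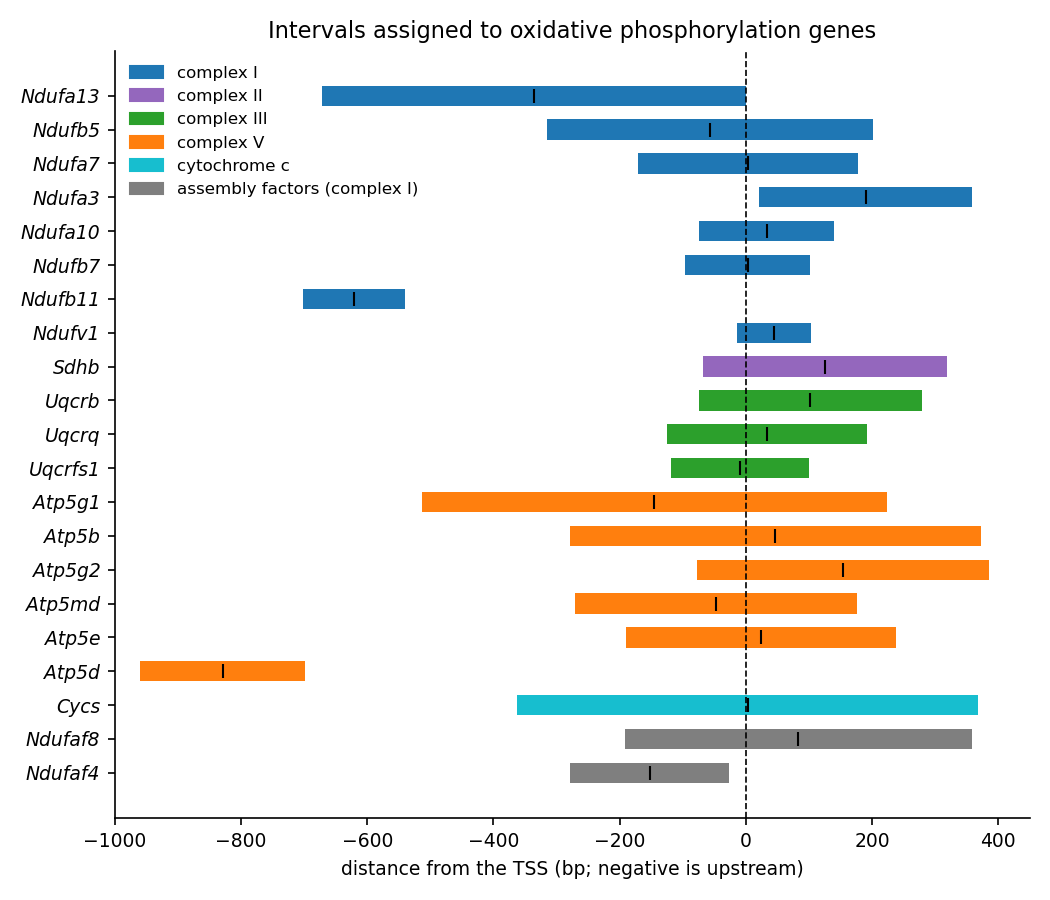
Extent of each of the 21 intervals (y axis, by gene, coloured by complex) relative to the authors' TSS (x axis, bp), with the centre as a tick and the TSS as a dashed line. The intervals at Atp5d, Ndufb11, Ndufa13 and Ndufaf4 lie wholly upstream, centred at -829, -621, -336 and -152 bp, that at Ndufa3 lies downstream, and 16 of 21 cross the line.

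For 17 of 19 members with a RefSeq start in the promoter table, the authors' distance matched the distance to that start within 1 bp. The exceptions were Ndufa13 (-336 bp by the authors and -874 bp from the table) and Atp5g1 (-145 and -208 bp), so the centres of these peaks depend on the start site used. The start of Ndufa13 in that table lay 539 bp from its own interval, and 75 bp from another interval of 238 bp that was assigned to Tssk6.

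Widths ranged from 117 to 737 bp among the members and were not large for the list. The median of 354 bp (exact 95% interval of the median 252 to 517 bp) is beside 395 bp over the 3805 peaks, and 9 of 21 members were wider than that value. None exceeded 1000 bp, whereas 7.46% of the 3805 did. Intervals under 200 bp numbered 3 (14.3%, against 8.57%), and all were in complex I: Ndufb7, Ndufb11 and Ndufv1. The median was 330 bp for the 27 peaks of mitochondrial ribosomal protein genes and 414 bp for the 47 of cytosolic ones.

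**Figure D3:**
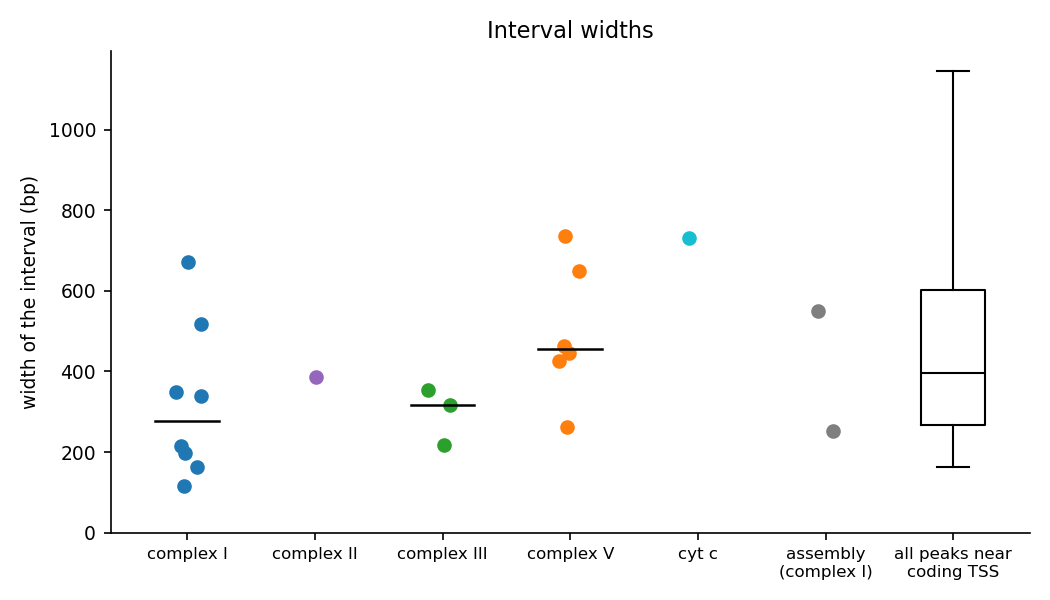
Width of each interval in bp (y axis) by complex, 1 point per peak, with the median as a line where a group has over 2 peaks; the box shows the quartiles and median of the 3805 peaks near protein-coding start sites, with whiskers at the percentiles 5 and 95. Complex I points sit mostly below the median of 395 bp and complex V points mostly above it; complex IV has no point.

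Because a peak is assigned to 1 gene only, start sites were also matched to peaks of any name. Of 69 subunit genes with a start in the promoter table, 19 started inside or within 250 bp of a peak (27.5%, exact 95% interval 17.5 to 39.6), beside 17.2% of 17491 protein-coding genes. The lower end of that interval lies only just above the background, while the interval of the share with an assigned peak holds its background. With peaks of at least 200 bp only, the share by start site was 24.6%, against 16.2%, with no exact interval computed. For 5 of the 19 genes the nearby peak bears a neighbour's name. These are Ndufa13, given above with the peak of Tssk6, and 4 genes with no assigned peak of their own. Sdha, the flavoprotein subunit of complex II, started inside the 500 bp interval of Ccdc127. Atp5j, a peripheral stalk subunit of complex V, started inside the 833 bp interval of Gabpa, which codes for the DNA-binding subunit of GABP. Uqcrh, the hinge protein of complex III, started 96 bp from the 380 bp interval of Lrrc41. Ndufa4, by its older name a complex I gene and now placed in complex IV, started 67 bp from the 478 bp interval of Phf14, and was the only complex IV subunit gene with a start so near a peak (1 of 13 in the table).

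Shared start sites also occurred among the members. The intervals of 4 members held, or lay within 250 bp of, the start of a second protein-coding gene, on the opposite strand in each case. The same share was not computed over all peaks near protein-coding start sites, so this count cannot be called high or low. Genes without an entry in the promoter table could not be seen. Ndufb5 shared its interval with Mrpl47, a mitochondrial ribosomal protein gene, Ndufa7 with the cytosolic ribosomal protein gene Rps28, Atp5md with Pdcd11, and Ndufaf8 with Tepsin. In the gene table, which gives no strand, an end of Gdf9 lay as near to the Uqcrq interval and an end of Gm10767 as near to that of Uqcrb. Whether XBP1s acts on either gene of such a pair was not measured.

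With either end of the gene in the RefSeq gene table within 250 bp of a peak, which does not use strand, 25 of 85 subunit genes had a peak (29.4%), beside 15.1% of protein-coding genes. This measure was chosen, and its genes named, after the values were seen. It added Ndufa2 (peak of Ik, 838 bp), Ndufb9 (Tatdn1, 396 bp) and Ndufs1, the largest core subunit of complex I (Eef1b2, 890 bp). It also added Atp5a1, the alpha subunit of F1 (Haus1, 499 bp). By any of the 3 measures 27 of 85 subunit genes had a peak (31.8%), beside 18.9% of protein-coding genes. The shares on the same measures together were 44.9% for mitochondrial ribosomal protein genes, 48.1% for assembly factors, 52.9% for proteasome genes and 59.1% for cytosolic ribosomal protein genes, all above that of the subunits, with no test. Complex V then stood at 8 of 17 (47.1%), complex III at 4 of 9, complex II at 2 of 4, complex I at 11 of 36 (30.6%) and complex IV at 1 of 18 (5.56%). In F1, 4 of 5 genes were counted, all but the gamma subunit gene Atp5c1.

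Letters of 10 motifs were searched on both strands of the 300-base promoters. These bases are not the intervals themselves. The intervals of Atp5d, Ndufb11 and Ndufa13 lay 698, 540 and 539 bp from the RefSeq start, wholly outside the bases searched. Parts of other intervals beyond the 300 bases were not read either, so a match there would be missed. The letters of the UPR element (TGACGTGG), and the 2 ER stress elements (CCAAT followed after 9 bases by CCACG, and ATTGG followed after 1 base by CCACG), were in 0 of 19 members and 0 of 52 subunit genes without an assigned peak. They are rare in general: the UPR element was in 2.05% of 2879 other genes with a peak and in 0.823% of all 17491 promoters, so few matches could be seen in a set of this size. ACGTG, which is part of the UPR element, was in 7 of 19 members (36.8%) and 21.2% of the subunit genes without an assigned peak. It was in 38.2% of the other genes with a peak and 23.2% of all promoters. In 3 of the 7, Atp5g1, Cycs and Ndufa7, a match lay inside the interval. On the gene's own strand alone ACGTG was in 15.8% of members. That share was not computed for the other sets, so it cannot be set beside their values for both strands. CACGTG was in Atp5g1, Ndufa7 and Ndufv1.

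The letters tied to respiratory gene promoters were found in members and in subunit genes without an assigned peak. The 19 members include the assembly factor genes Ndufaf4 and Ndufaf8, whereas the set without an assigned peak holds subunit genes only. That set includes Sdha, Atp5j, Uqcrh and Ndufa4, which start inside or near a peak of another name, so it is not free of peaks. NRF1 letters were in 4 of 19 members (21.1%) and 15.4% of subunit genes without an assigned peak. They were in 7.64% of other genes with a peak and 3.93% of all promoters. The CRE was in 3 of 19 (15.8%), against 3.85%, 5.52% and 2.54% in the same order. All these members, Atp5g2, Cycs, Ndufaf4 and Sdhb for NRF1 and Cycs, Ndufa10 and Uqcrfs1 for the CRE, had a match inside the interval, as printed above. The ETS letters CCGGAAG were in 5 of 19 (26.3%), against 25%, 28% and 12.9%, and lay inside the interval in all 5 (Atp5e, Atp5md, Ndufaf8, Ndufb7 and Sdhb). On the gene's own strand alone, NRF1 letters were in 10.5% of members and ETS letters in 15.8%, while the CRE, a palindrome, stayed at 15.8%. Shares on 1 strand were not computed for the other sets. YY1 letters (AAGATGGCG) were in 1 member, Ndufaf8 (5.26%, against 13.5%, 4.76% and 2.14%). CCAAT was in 47.4% of members, against 44.2%, 44.9% and 42.3%, and the GC box GGGCGG in 57.9%, against 38.5%, 72.7% and 49.2%. Promoters of members had a median of 60% G and C and 18 CpG, those of subunit genes without an assigned peak 57.2% and 19.5. Those of other genes with a peak had 61.3% and 23, and all promoters 56.3% and 13. With 19 members, 1 gene moves a share by over 5 percentage points, and no share was tested.

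**Figure D4:**
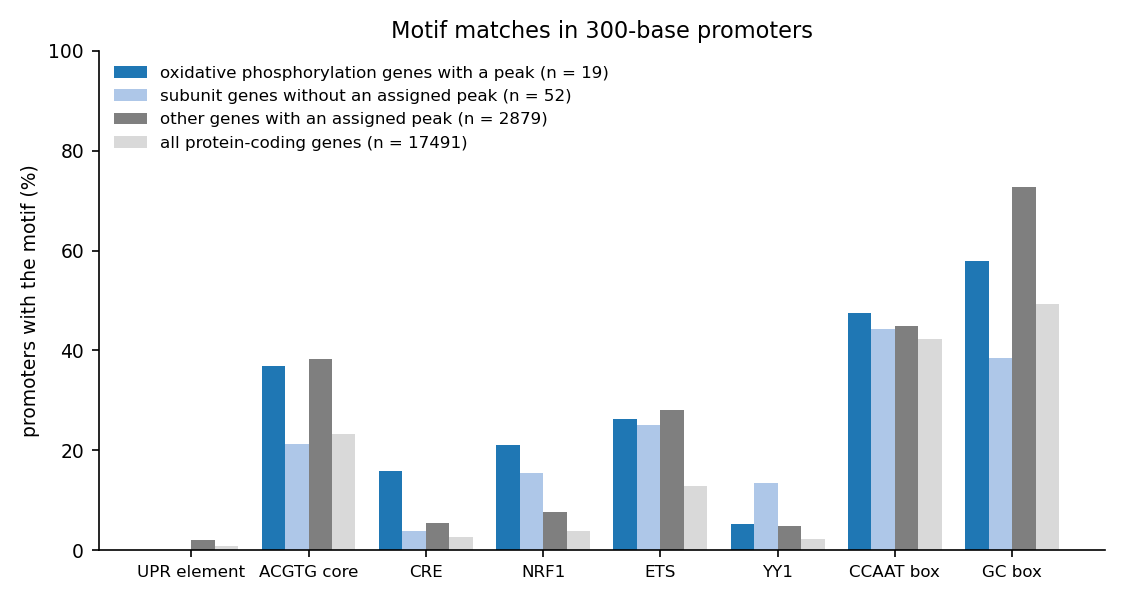
Percent of promoters of 300 bases with a match on either strand (y axis) for 8 motifs (x axis). The sets are oxidative phosphorylation genes with a peak (with the assembly factor genes Ndufaf4 and Ndufaf8), subunit genes without an assigned peak, other genes with a peak and all protein-coding genes. NRF1 and CRE bars are highest in the oxidative phosphorylation genes with a peak (21.1% and 15.8%), and the UPR element bar is at 0 in both sets of oxidative phosphorylation genes.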

How the data were processed

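XBP1s ChIP-seq was done on splenic NK cells. Per the labels' protocols, the cells were fixed in 1% formaldehyde for 10 min and sonicated, 2% of the chromatin was kept as input, and reads were paired-end of 100 bp. Tools listed by the submitters' processing notes are MACS2 (version 2.2.7.1), HOMER (4.11 and 4.11.1), Bowtie2 (2.4.5), Trim Galore (0.6.7) and FastQC (0.11.9). Per the file header, the table is HOMER's annotation of 1 interval list, named common, on mm10; the sources used here do not say how or at what threshold calls were combined. The score that the authors deposited is 0 throughout. Distances, nearest genes and annotation are HOMER's; widths are end minus start plus 1.

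Genes were matched by Entrez number and symbol to RefSeq tables of GRCm38.p6; all 168 list entries matched. The motif and overlap steps were tested on simulated data. Tables were handled in pandas 2.3.3 under Python 3.11.15, intervals computed with SciPy 1.17.1 and NumPy 2.4.6, and plots drawn with matplotlib 3.10.9. Members, gene lists and motifs were chosen with earlier results of these data known. Genes named are all members, subunit genes near a peak of another name, and in the other lists those with a peak, with widths for the widest; subunit genes named for having none were chosen after their values were seen. Some list genes are not reported here by name. Genes of S6 kinases that the name pattern takes in were left out of the cytosolic ribosomal list. Alternatives varied the distance window, the narrowest interval kept, the list, the measure of starts and the strand of motifs. No test was run, for lack of values by library.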

Additional observations from a re-analysis of the deposited data

How the results depend on the processing

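No paired analysis was possible because the deposited list has no values per library, and leaving out a replicate could not be run for the same reason. Of 58 values recomputed, 57 stayed within the exact 95% interval of the value reported. The exception was ACGTG, found in 15.8% of member promoters when only the gene's own strand was read. Such intervals are wide for small lists (0.631 to 80.6% for complex II), so a value could hardly leave them and the tally says little. The share of subunit genes with an assigned peak was 22.4% within 1000 bp, 25.9% at any distance, 18.8% with intervals of at least 200 bp, 21.4% over every gene the name pattern matches and 24.4% without tissue-restricted isoforms, while all protein-coding genes stood at 15.1%, 17.7% and 14.8% under the first 3. Complex I fell to 13.9% with intervals of at least 200 bp, below that background, and complex IV rose to 5.56% at any distance through the peak inside Bcl2l1. The share of subunit genes that start near a peak was 21.7% inside the peak itself, 31.9% within 1000 bp and 24.6% with intervals of at least 200 bp, against 12.7%, 18.8% and 16.2% of protein-coding genes; either gene end, a measure chosen after seeing the data, gave 29.4%. Small lists limit every share: 1 gene is over 5 points of complex IV.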

Other observations

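Genes that act around the respiratory chain are given as counts, beside 22.4% of subunit genes and 15.9% of all protein-coding genes with an assigned peak; no difference between these shares was tested. Of 18 genes for regulators and for copying and reading mitochondrial DNA, 10 had an assigned peak (55.6%, exact 95% interval 30.8 to 78.5). All 3 GABP subunit genes were among them, Gabpb1 with 1353 bp, Gabpb2 with 932 bp and Gabpa with 833 bp, as were Pprc1, a coactivator of the PGC-1 family (1001 bp), and Yy1 (560 bp). Tfam, which packages mitochondrial DNA, the mitochondrial DNA polymerase genes Polg and Polg2, Tfb1m and Ssbp1 had narrower intervals, of 230 to 503 bp.

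Of 13 genes of the tricarboxylic acid cycle, which supplies electrons to the chain, 6 had an assigned peak (46.2%, exact 95% interval 19.2 to 74.9). Among them were Ogdh (551 bp), the citrate synthase gene Cs (430 bp), Dld (407 bp), Mdh2 (225 bp) and the fumarase gene Fh1. The start of Idh3g lay inside the 1062 bp interval of Ssr4, a gene of the endoplasmic reticulum, and that of Twnk, the helicase gene of mitochondrial DNA, inside the 386 bp interval of Mrpl43.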
